A study of Mus musculus with 4 samples.

Results

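The genes described here are 9 that mark the macrophages of brain borders, namely Mrc1, Cd163, Lyve1, F13a1, Pf4, Cbr2, Ms4a7, Stab1 and Folr2. They were taken by gene symbol from a table of 19572 transcript clusters, the probe groups that measure a gene on the array, which stand for 19505 genes. All 9 were measured, each by 1 transcript cluster. They were chosen by known role with the TCQA-against-water differences of these same 4 arrays in view, among which Mrc1 was one of the largest, so that the differences of the 9 genes are given as a description, without a test. RNA came from brain cortex of male SAMR1 mice, the senescence-resistant line of the senescence-accelerated mouse series. Mice were kept singly for 4 months from the age of 7 months. From 11 months of age the TCQA group was given 5 mg/kg of tricaffeoylquinic acid, a polyphenol of plants, orally each day over 1 month, and the water group MilliQ water. Each group had 2 arrays, called TCQA 1, TCQA 2, water 1 and water 2 here. The labels do not say whether an array held 1 mouse or a pool, and nothing says that the arrays of a group came from separate animals. SEs and p-values therefore cover the spread among these arrays alone, which may be technical, and precision is limited by their number. Each SE is moderated, meaning that the variance of a gene is drawn towards that of all transcript clusters. A gene whose arrays lie far apart can thus have a smaller SE than its own arrays alone would give.

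Border macrophages live in the meninges, in the spaces around blood vessels and in the choroid plexus, outside the brain tissue in which microglia reside. They are known for taking up material from the fluid around them through scavenger and lectin receptors, several of which are among the 9 genes. Microglia share with them the growth factor receptor Csf1r but express most of the 9 genes weakly or not at all. In a piece of cortex they are a small share of the cells, and in such bulk samples more cells of a type and more RNA per cell cannot be told apart.

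Values are log2 signals normalised by the authors. The arrays carry 5222 negative control probe sets, whose median over the 4 arrays was 6.98 with a 5th percentile of 3.77 and a 95th percentile of 11.06, and 49.8% of the tested transcript clusters had a mean below that median. Of the 9 genes, 8 lay below it on all 4 arrays. Mrc1 alone lay above it on any array, and it did so on both TCQA arrays. Levels of Cd163, Lyve1, F13a1, Pf4, Cbr2, Ms4a7, Stab1 and Folr2 ranged from 3.62 to 5.95, and each exceeded between 4.31% and 30.4% of the negative controls of its own array. Differences among such dim signals are uncertain in size. The marker genes of cortical excitatory neurons were above the negative control median in 7 of 7 measured cases. Their mean log2 signal was 13.58 and 13.52 on the TCQA arrays and 12.71 and 13.53 on the water arrays, lowest on water 1. They were higher in TCQA in 6 of 7 cases with a median of 0.54, which was -0.04 without water 1. The arrays also differed in markers of neighbouring regions. The mean log2 signal of the 13 measured choroid plexus markers was 7.18 and 6.49 on the TCQA arrays and 8.43 and 7.86 on the water arrays. Olfactory bulb markers (9 measured) averaged 7.00 and 8.91 on the TCQA arrays and 7.35 and 7.09 on the water arrays, highest on TCQA 2. Striatal markers (8 measured) averaged 13.39 and 12.79 on the TCQA arrays and 14.42 and 13.19 on the water arrays, highest on water 1.

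Promoter sequences are shown for the genes of the list whose groups did not overlap and for which RefSeq's table on GRCm38.p6 holds an entry. Each runs over the 250 bases before the annotated start, 5′ to 3′ on the strand of the gene. Capitals mark GAGGAA or its reverse complement TTCCTC, the core letters bound by PU.1, the transcription factor of macrophages encoded by Spi1. Lyve1 is named without a sequence, and of the starts annotated for Folr2 the one next to Folr1 is shown.
Mrc1 (chr2:14229164-14229413, plus strand): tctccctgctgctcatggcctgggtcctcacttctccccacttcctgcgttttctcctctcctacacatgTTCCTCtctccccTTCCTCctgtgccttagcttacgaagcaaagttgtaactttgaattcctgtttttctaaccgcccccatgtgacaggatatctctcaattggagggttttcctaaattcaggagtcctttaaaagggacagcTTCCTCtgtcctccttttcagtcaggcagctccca
Pf4 (chr5:90772185-90772434, plus strand): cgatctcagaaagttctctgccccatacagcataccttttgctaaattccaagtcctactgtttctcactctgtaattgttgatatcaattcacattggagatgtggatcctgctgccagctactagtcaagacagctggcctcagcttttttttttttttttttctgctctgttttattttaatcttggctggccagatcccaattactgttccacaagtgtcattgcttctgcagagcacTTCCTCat
Folr2 (chr7:101857191-101857440, minus strand): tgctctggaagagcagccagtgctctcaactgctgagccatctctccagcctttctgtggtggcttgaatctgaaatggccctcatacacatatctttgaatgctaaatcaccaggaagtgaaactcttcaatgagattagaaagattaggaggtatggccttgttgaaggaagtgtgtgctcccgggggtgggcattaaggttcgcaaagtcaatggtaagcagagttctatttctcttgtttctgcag

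The Mrc1 window held these letters 3 times, the Pf4 window once and the shown Folr2 window not at all. Among genes whose groups overlapped, F13a1 (in 1 of its 2 windows), Cbr2 and Stab1 also held them once, and Cd163 and Ms4a7 did not. Over both strands, 5 of the 8 genes with an entry held GAGGAA in at least 1 of their windows, as did 25.9% of the 27025 genes of the table. A count of at least 3 was found in 0.429% of the 32851 windows. The half-site of MAF factors, TGCTGA or TCAGCA, was found in 2 of the 8 genes, against 18.0% of all genes. These matches describe the letters of the windows and do not show binding.

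Between the groups, Mrc1 stood above the water level after TCQA while the differences of the other 8 genes were spread on both sides of 0. The 9 genes were higher on average in TCQA in 4 cases and lower in 5, with a median difference (TCQA minus water) of -0.03 on the log2 scale, beside 0.0028 over all 19572 transcript clusters. Without Mrc1 the 8 differences ranged from -0.46 to 0.32, with a median of -0.03. Both TCQA arrays lay above both water arrays for 3 of the 9 genes (Mrc1, Pf4 and Lyve1), or 33.3%, where 19.9% of all transcript clusters did so. Both lay below for 1 gene (Folr2), or 11.1%, where 19.2% of all did. Without TCQA 2 the count of 3 became 5. The median of the 9 genes was 0.05 without TCQA 2, 0.09 without water 1 and 0.10 without water 2. With limma and Benjamini-Hochberg adjustment over all transcript clusters 0 of 19572 passed at 0.05, and the smallest adjusted p was 0.642. An unadjusted p under 0.05 was reached by 7.37% of all, and the study's own criteria, which add a change beyond 2-fold, were met by 0.664%.

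**Figure D1:**
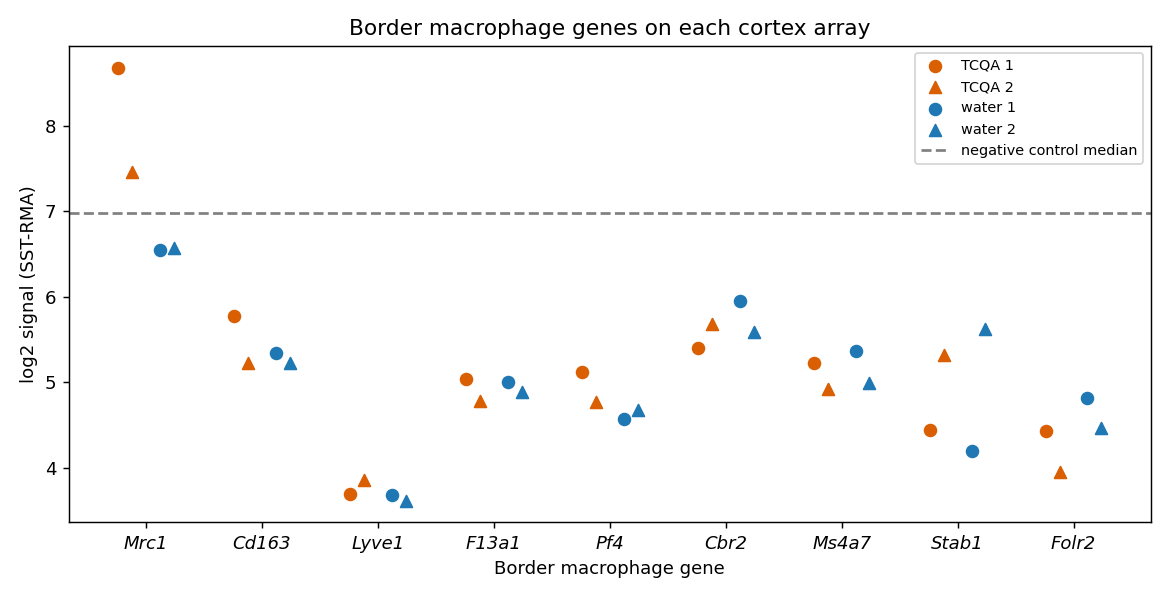
Log2 signal (vertical axis) of the 9 border macrophage genes (horizontal axis) on each of the 4 arrays, TCQA in orange and water in blue, with the negative control median of 6.98 as a dashed line. Mrc1 lay above the line on TCQA 1 (8.68) and TCQA 2 (7.46) and below it on both water arrays, and the other 8 genes lay below it throughout.

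Mrc1 encodes the mannose receptor CD206, an endocytic lectin receptor that clears glycoproteins ending in mannose. Its signal was 8.68 on TCQA 1 and 7.46 on TCQA 2, against 6.54 on water 1 and 6.57 on water 2. The groups did not overlap, and the lowest TCQA value lay 0.89 above the highest water value. On its own array each value exceeded 78.2% and 59.6% of the negative controls in the TCQA samples and 41.8% and 42.4% in the water samples. The difference was 1.51 (SE 0.39, n = 2 per group), or 2.85-fold. Both water values lay below the negative control median, so the size of this fold is uncertain. The TCQA arrays were 1.22 apart and the water arrays 0.03 apart, so that the size of the difference rests on which TCQA array is used. It was 2.12 without TCQA 2 and 0.90 without TCQA 1, and it stayed between 0.90 and 2.12 in all 8 alternative settings. As the groups did not overlap, leaving out an array could change its size but not its direction.

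The other uptake receptors separated the groups by less, or not at all. Cd163, the scavenger receptor for haemoglobin bound to haptoglobin, had 5.78 and 5.22 on the TCQA arrays and 5.34 and 5.23 on the water arrays. TCQA 1 was the highest of the 4 and TCQA 2 the lowest, and the groups overlapped, with a difference of 0.21 (SE 0.24) that was -0.06 without TCQA 1 and 0.49 without TCQA 2.

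Stab1, encoding stabilin-1, a scavenger receptor for modified proteins and phosphatidylserine, had the largest SE of the 9 genes. It stood at 4.45 and 5.32 on the TCQA arrays and at 4.20 and 5.63 on the water arrays, so that the second array of each group was the higher and the water arrays enclosed the TCQA arrays. Its difference of -0.03 (SE 0.50) ranged from -0.74 to 0.68 as single arrays were left out.

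Lyve1, a hyaluronan receptor of perivascular and meningeal macrophages and of lymphatic vessels, was measured at 3.70 and 3.86 on the TCQA arrays and 3.68 and 3.62 on the water arrays. The groups did not overlap, but by 0.02 only, and the difference was 0.13 (SE 0.19). Folr2, the folate receptor beta of macrophages, was at 4.43 and 3.95 on the TCQA arrays and at 4.82 and 4.47 on the water arrays. Both TCQA arrays lay below both water arrays, by 0.04, and the difference of -0.46 (SE 0.25) was smaller in size than the gap of 0.48 between the TCQA arrays. It was -0.22 without TCQA 2 and -0.70 without TCQA 1.

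Of the secreted and cytosolic products, Pf4, the chemokine CXCL4 of platelets that border macrophages also make, was at 5.12 and 4.77 on the TCQA arrays and 4.57 and 4.67 on the water arrays. The groups did not overlap, with 0.10 between them, and the difference was 0.32 (SE 0.21), against 0.35 between the TCQA arrays. It was 0.15 without TCQA 1 and 0.50 without TCQA 2. F13a1, the catalytic subunit of coagulation factor XIII, which cross-links fibrin, was at 5.04 and 4.78 on the TCQA arrays and 5.00 and 4.89 on the water arrays. The TCQA arrays enclosed the water arrays, and the difference was -0.03 (SE 0.20).

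Cbr2, a carbonyl reductase of macrophages in mice, was at 5.40 and 5.69 on the TCQA arrays and 5.95 and 5.58 on the water arrays, and the groups overlapped with a difference of -0.22 (SE 0.22). Ms4a7, a membrane protein with 4 membrane-spanning segments that separates border macrophages from microglia, was at 5.23 and 4.93 on the TCQA arrays and 5.37 and 4.99 on the water arrays. These also overlapped, with a difference of -0.10 (SE 0.23). For 8 of the 9 genes, Mrc1 being the exception, arrays of 1 group differed from each other by more than the groups did. The share of all transcript clusters with this trait was not counted, so the count is a description and does not set Mrc1 apart.

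**Figure D2:**
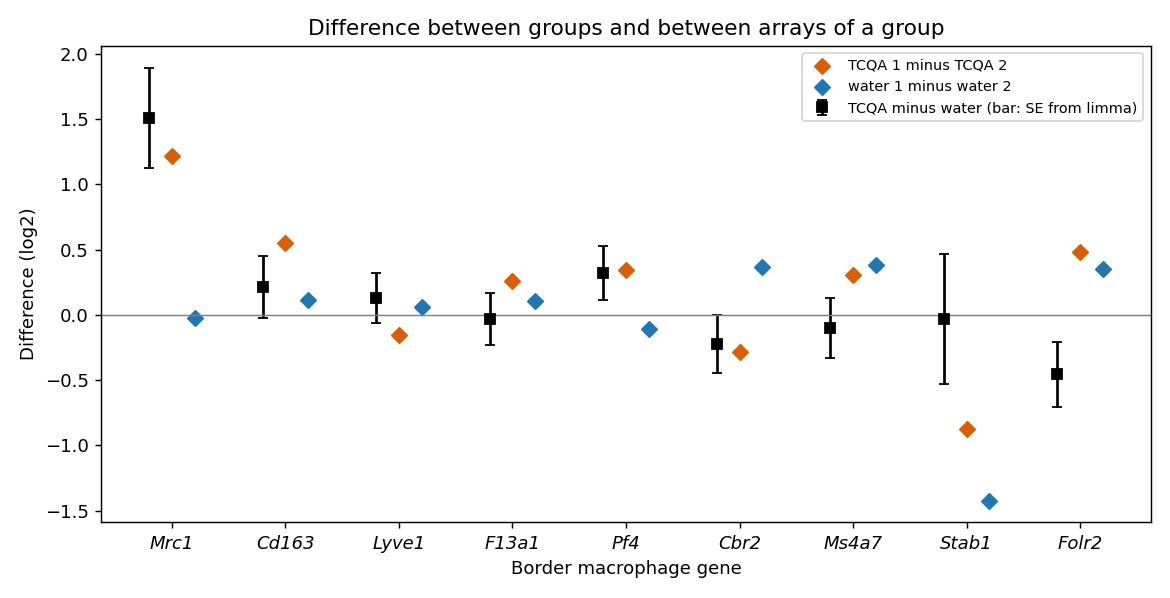
TCQA minus water on the log2 scale with its moderated SE (black squares), TCQA 1 minus TCQA 2 (orange) and water 1 minus water 2 (blue) for each gene. For Mrc1 the difference between groups (1.51) exceeded both differences within groups (1.22 and -0.03), and for Stab1 the gap between the water arrays (-1.42) far exceeded that between groups (-0.03).

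**Figure D3:**
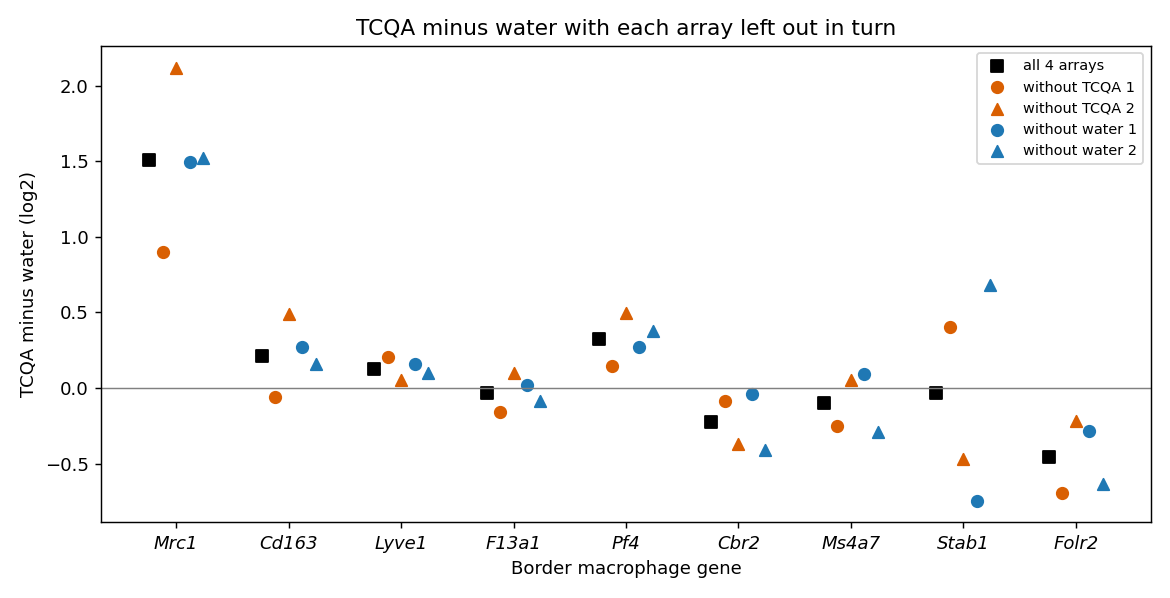
TCQA minus water on the log2 scale for each gene with all 4 arrays and with each array left out in turn. Mrc1 stayed between 0.90 and 2.12, and Stab1 ranged from -0.74 to 0.68.

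Each of the 9 genes was set beside a relative in sequence or family. For Mrc1 the relative is Mrc2 (Endo180), a collagen-binding receptor of the mannose receptor family found on fibroblasts and some macrophages. Mrc2 was at 6.07 and 6.77 on the TCQA arrays and 5.41 and 5.68 on the water arrays, a difference of 0.87 (SE 0.28), without overlap. Unlike Mrc1 it was higher on TCQA 2 than on TCQA 1, and all 4 values lay below the negative control median. It was 0.52 without TCQA 2 and 1.22 without TCQA 1. Ly75 and Pla2r1, 2 further genes of that family named after their values were seen, differed by -0.06 (SE 0.19) and 0.28 (SE 0.24). Whether probes of these relatives read each other's transcripts was not tested.

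Folr2 adjoins Folr1 in the genome, the folate receptor alpha of choroid plexus epithelium. Folr1 was at 7.12 and 5.58 on the TCQA arrays and 8.44 and 8.28 on the water arrays, a difference of -2.01 (SE 0.47), and -1.24 without TCQA 2. Both folate receptors thus had both TCQA arrays below both water arrays, with TCQA 2 the lowest and water 1 the highest in each. Pf4 and its neighbour Ppbp, which encodes a second platelet chemokine, pointed in different directions. Ppbp was at 3.09 and 2.99 on the TCQA arrays and 3.58 and 3.35 on the water arrays, a difference of -0.42 (SE 0.20). Dcxr, the xylulose reductase gene next to Cbr2, was at 7.18 and 7.24 on the TCQA arrays and 7.47 and 7.78 on the water arrays, a difference of -0.42 (SE 0.20). The relatives of the remaining genes overlapped between groups. Their differences were 0.19 (SE 0.21) for Stab2, -0.20 (SE 0.26) for the hyaluronan receptor Cd44, 0.09 (SE 0.25) for the transglutaminase Tgm2, 0.05 (SE 0.32) for Ms4a6d and -0.02 (SE 0.18) for Cd163l1.

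Genes of the same cells and of neighbouring ones were counted over 24 further lists, with 289 of 313 listed genes measured. None of the 289 passed limma's adjusted threshold, and 31 had an unadjusted p under 0.05, where 7.37% of all transcript clusters had one. Among the 31 were 9 choroid plexus markers, all lower in TCQA. Of 29 measured further markers of border macrophages, 13 were higher and 16 lower in TCQA, with a median of -0.05. Of these, 2 had an unadjusted p under 0.05 as higher and 0 as lower, where 3.48% of all transcript clusters had one as higher and 3.89% as lower. Colec12, a collectin-type scavenger receptor of vessels and border cells, was at 7.08 and 7.40 on the TCQA arrays and 6.36 and 6.38 on the water arrays, a difference of 0.87 (SE 0.20, adjusted p = 0.642 by limma). The groups did not overlap, the negative control median lay between them, and the difference stayed between 0.71 and 1.04 in the alternatives. Ms4a6c was at 5.25 and 5.15 on the TCQA arrays and 4.83 and 3.51 on the water arrays. Its difference of 1.02 (SE 0.41) was 0.36 without water 2 and 1.68 without water 1. Ms4a6c lay below the negative control median on every array.

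Scavenger and endocytic receptors outside the 9 genes were higher in 10 and lower in 12 of 22 cases (median -0.08). The 3 with an unadjusted p under 0.05 were all higher in TCQA, namely Colec12, Mrc2 and Mertk. Over all transcript clusters 3.48% had such a p as higher. The lists share genes, and Colec12 was also counted above among the further border macrophage markers, so these counts are not separate observations. Mertk, a receptor tyrosine kinase with which phagocytes take up dying cells, was at 10.90 and 10.97 on the TCQA arrays and 10.52 and 10.38 on the water arrays, a difference of 0.49 (SE 0.19). It lost the unadjusted p under 0.05 without any 1 of the 4 arrays, with values from 0.42 to 0.55. Alternative activation genes, a set often listed with Mrc1, were higher in 6 and lower in 10 of 16 cases (median -0.06). Il10, an anti-inflammatory cytokine, had the 1 unadjusted p under 0.05 there, at 5.20 and 5.36 on the TCQA arrays and 5.83 and 5.95 on the water arrays, below the negative control median. It did not keep that p with TCQA 1 (-0.53) or water 2 (-0.55) left out. Class II antigen presentation genes were lower in 10 of 11 cases (median -0.16, but -0.05 without TCQA 1 and -0.38 without water 2), and 0 of the 11 had a mean above that median. In the family of Ms4a7, 5 of 14 genes were higher (median -0.16, and -0.01 without water 1), and Ms4a4d differed by -0.57 (SE 0.19). Of these 14 genes, 0 had a mean above the negative control median. Ms4a6c, described above with the border macrophage markers, is of this family too. It and Ms4a15 were the 2 of the 14 with an unadjusted p under 0.05 as higher. Ms4a15 was at 6.48 and 8.18 on the TCQA arrays and 6.12 and 5.80 on the water arrays. Its difference of 1.37 (SE 0.52) was 0.52 without TCQA 2 and 2.22 without TCQA 1.

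Haem and iron handling genes, which include partners of Cd163, were higher in 7 and lower in 9 of 16 cases (median -0.09). Hpx, the haem carrier haemopexin, was lower by a log2 difference of -0.63 (SE 0.19), at 3.39 in TCQA and 4.02 in water, both groups being dimmer than the negative control median. Genes of hyaluronan metabolism, the ligand side of Lyve1, were higher in 4 of 10 cases (median -0.06), those of folate uptake and one-carbon enzymes in 4 of 9 (median -0.03), chemokines in 8 of 20 (median -0.06) and genes of macrophage growth factor signalling in 3 of 14 (median -0.13, and -0.04 without TCQA 2). Coagulation factors and transglutaminases were higher in 14 of 16 cases (median 0.17, but 0.11 without water 1), and in 11 of 16 without TCQA 2.

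Markers shared by macrophages of any kind were lower in 14 of 17 cases, with a median of -0.23 that was -0.08 without TCQA 2 and -0.07 without water 1. Csf1r, the survival receptor of microglia and macrophages, was at 10.61 and 10.25 on the TCQA arrays and 10.54 and 10.47 on the water arrays, a difference of -0.07 (SE 0.21). Ptprc, the leukocyte antigen CD45, and Adgre1, an adhesion receptor of macrophages, differed by -0.26 (SE 0.27) and 0.03 (SE 0.28). Both lay below the negative control median on every array. Aif1, the macrophage protein IBA1, was at 8.35 and 7.69 on the TCQA arrays and 8.74 and 8.69 on the water arrays, a difference of -0.70 (SE 0.26), and -0.37 without TCQA 2. The mean log2 signal of the 17 markers was 7.95 and 7.70 on the TCQA arrays and 8.08 and 7.95 on the water arrays.

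Microglia markers were higher in 6 and lower in 9 of 15 cases (median -0.05). P2ry12, their purinergic receptor, was at 13.48 and 12.98 on the TCQA arrays and 13.35 and 13.36 on the water arrays. Tmem119 differed by -0.07 (SE 0.20) but lay below the negative control median on every array. Olfml3, a secreted matrix protein, was higher by a log2 difference of 0.61 (SE 0.19) and Gpr84, a fatty acid receptor of activated microglia, was lower by -0.93 (SE 0.19), with Gpr84 below the negative control median on all arrays. Olfml3 no longer had an unadjusted p under 0.05 when TCQA 1 (0.51) or water 2 (0.55) was left out.

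Other sources of these transcripts were also counted. Pf4 and F13a1 are made by platelets and megakaryocytes, whose 8 measured markers were higher in 3 and lower in 5 cases (median -0.09). Their mean log2 signal was 5.32 and 5.33 on the TCQA arrays and 5.48 and 5.37 on the water arrays, with Gp9 at 6.91 and 7.04 on the TCQA arrays and 7.00 and 6.92 on the water arrays. Lyve1 and Stab1 are also found in lymphatic endothelium, whose 8 markers had a median of 0.04. Ccl21a, a lymphatic chemokine with near-identical gene copies, differed there by -0.84 (SE 0.25), which was -0.54 without water 2 and -1.15 without water 1, and Prox1, the master regulator of that endothelium, by -0.21 (SE 0.19). Monocyte and neutrophil markers were higher in 10 of 13 cases (median 0.08, and 0.32 without TCQA 2). Fn1, fibronectin, which fibroblasts and vessels make as well, was at 8.09 and 8.18 on the TCQA arrays and 7.03 and 7.06 on the water arrays, a difference of 1.09 (SE 0.18, adjusted p = 0.642 by limma) that stayed between 1.05 and 1.13 in the alternatives.

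Markers of the places in which border macrophages sit differed in direction. Meningeal fibroblast markers were higher in 7 and lower in 8 of 15 cases (median -0.02), with a mean log2 signal of 6.86 and 7.12 on the TCQA arrays and 6.87 and 6.99 on the water arrays. Col1a1 was at 6.70 and 6.24 on the TCQA arrays and 6.15 and 6.03 on the water arrays. Slc22a6, an organic anion transporter of that list, differed by 0.63 (SE 0.22). Markers of blood-brain barrier endothelium were higher in 10 of 12 cases (median 0.29), and in 7 of 12 without TCQA 2. An unadjusted p under 0.05 was reached by 3 of them as higher, where 3.48% of all transcript clusters did so. Slc2a1, the glucose transporter of that barrier, differed by 0.77 (SE 0.19) and Flt1, a receptor for vascular growth factor, by 0.67 (SE 0.21). Flt1 did not keep its unadjusted p under 0.05 with TCQA 1 (0.62) or water 1 (0.51) left out. Choroid plexus markers were lower in 12 of 13 cases (median -1.05, and -0.72 without TCQA 2). Mrc1 was highest on TCQA 1, the choroid plexus markers were lowest and the olfactory bulb markers highest on TCQA 2, and the part of such tissue differences in the values of Mrc1 was not tested.

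**Figure D4:**
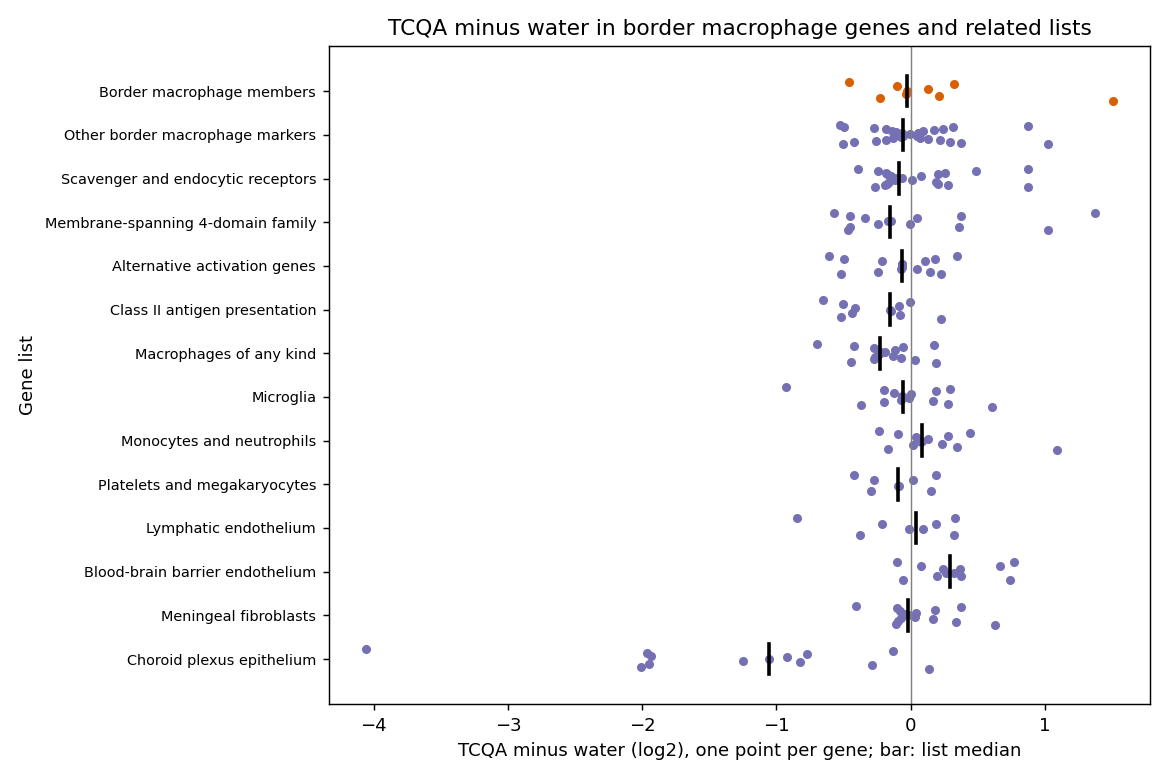
TCQA minus water on the log2 scale (horizontal axis) for each measured gene of the border macrophage list (orange) and of 13 related lists (purple), with a black bar at each list's median. Mrc1 is the orange point at 1.51, beyond the other 8 genes of its list, and the choroid plexus genes lie furthest to the left with a median of -1.05.

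The 5 genes nearest to Mrc1 in profile were found by the root mean square distance between log2 values centred on the mean of the 4 arrays, among 9785 transcript clusters at or above the median signal. The 4 described here were Rab4a (distance 0.27), a GTPase of endosome recycling, Urb2 (0.27), a ribosome biogenesis factor, Pcsk1n (0.32), a neuroendocrine inhibitor of prohormone cleavage, and Kifc2 (0.38), a kinesin of neurons. Rab4a was at 12.54 and 11.90 on the TCQA arrays and 11.12 and 10.90 on the water arrays, and like Mrc1 it was highest on TCQA 1. The transcript cluster names of Rab4a and Urb2 place them near each other on the same chromosome, so they need not be separate matches. The 4 genes are not markers of the lists used here, and their likeness over 4 arrays is a description only. Folr2 had the next largest difference of the 9 genes. Nearest to it were Tnfrsf12a, Rfpl4, Vdr, Myo18a and Il4ra, at distances from 0.043 to 0.050.

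**Figure D5:**
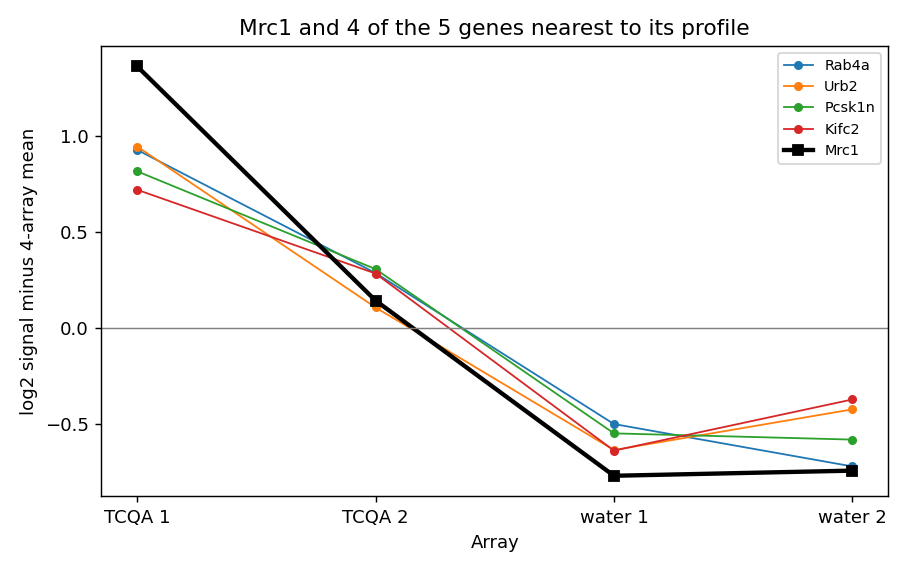
Log2 signal minus the mean of the 4 arrays (vertical axis) for Mrc1 (black) and 4 of the 5 genes nearest to its profile, by array. Each of the 5 genes drawn was highest on TCQA 1, next on TCQA 2 and lower on both water arrays.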

How the data were processed

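Gene expression was measured on Clariom S mouse arrays from 100 ng of RNA each, per the submitters' design text. Log2 signals, 1 for each transcript cluster and array, were deposited. The authors had normalised them with SST-RMA (RMA after a signal space transformation) with Transcriptome Analysis Console 4.0.2, per the same text. Such values carry no depth. The authors' detection filter was not applied here, so dim genes were kept. Gene symbols came from the platform annotation. The genome build behind the array was not given in the sources used here.

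Groups came from the sample titles. limma 3.58.1 in R 4.3.3 (lmFit and eBayes, group as the only term) was fitted over 19572 transcript clusters with Benjamini-Hochberg adjustment. It gave each log2 difference and its moderated SE. It was tested on simulated data. No list was tested as a set. Alternatives covered normalisation, centring, a replicate block, rows per symbol, dim signals, the variance prior and each array left out.

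The 9 genes, the further lists and the settings were chosen with earlier results of these data known. Named genes were drawn by rule from the 9 genes, their relatives, 12 defining markers, the 3 smallest p-values of each list, and the 5 nearest profiles of Mrc1 and Folr2. Not all of these are named, and 1 profile near Mrc1 is not reported here. Promoters came from RefSeq on GRCm38.p6. Figures were drawn with matplotlib 3.10.9.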

Additional observations from a re-analysis of the deposited data

How the results depend on the processing

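The median difference of the 9 genes (-0.03) ranged from -0.061 to 0.097 with single arrays left out, and it was 0.05 under quantile normalisation. The count of genes with both TCQA arrays above both water arrays (3) ranged from 3 to 5 with single arrays left out and was 4 under quantile normalisation. Mrc1, Lyve1 and Pf4 stayed higher, and Cbr2 and Folr2 lower, in all 8 alternatives, while Cd163, F13a1, Ms4a7 and Stab1 changed sign in 1, 3, 2 and 3 of them. The replicate block and the mean of rows per symbol could not change these differences, with groups of equal size and 1 row per gene. Leaving out 1 array could not change the sign of Mrc1, Lyve1, Pf4 or Folr2, whose groups did not overlap. Over all transcript clusters, the count meeting the study's criteria (130) ranged from 218 to 428 with single arrays left out, the lone array of a group being assumed to vary like the other group. It was 44 among transcript clusters at or above the negative control median and 55 without the empirical Bayes step. An unadjusted p under 0.05 was reached by 902 with that filter, against 1443, where fewer genes were tested. The adjusted threshold was passed by 0 to 2 with single arrays left out, neither being one of the 9 genes, and by 0 in the other alternatives. The cause of these shifts was not tested beyond that. Replicate numbers are shared by the groups' labels, but deviations of arrays with the same number did not correlate across genes (r = -0.0032), so the numbers are not taken to pair samples. With the replicate block the median of the 9 genes was -0.03, the study's criteria were met by 130 and an unadjusted p under 0.05 by 1497. Of 43 further named genes, none changed direction where it had an unadjusted p under 0.05, and 8 of the 21 such genes kept it whichever array was left out. Mrc2, Mertk, Ms4a6c, Ms4a15, Ms4a4d, Olfml3, Aif1, Il10, Hpx, Flt1, Ccl21a, Slc22a6 and Urb2 did not. The medians of the lists of further border macrophage markers, microglia, platelets, lymphatic endothelium, meningeal fibroblasts, scavenger receptors, haem and iron handling, hyaluronan, folate and alternative activation changed sign with at least 1 array left out. So did those of dendritic cells, red blood cells, olfactory bulb (0.82, but -0.05 without TCQA 2) and cortical excitatory neurons (0.54, but -0.04 without water 1). Array values carry no depth, and closeness to the negative controls leaves the differences of the 9 genes uncertain in size.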
